A study of Mus musculus with 40 samples.

Results

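The 7 genes encoding the cyclin-dependent kinase (CDK) inhibitors of the INK4 and CIP/KIP families were followed across mouse embryos and fetal liver cells lacking KAT6A or KAT6B, or carrying point mutations in their acetyltransferase domains. They were selected by gene symbol among the 26411 genes counted. The 4 INK4 genes are Cdkn2a (p16INK4A and p19ARF), Cdkn2b (p15INK4B), Cdkn2c (p18INK4C) and Cdkn2d (p19INK4D), and the 3 CIP/KIP genes are Cdkn1a (p21CIP1), Cdkn1b (p27KIP1) and Cdkn1c (p57KIP2).

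INK4 proteins bind CDK4 and CDK6 and keep them from pairing with D-type cyclins, whereas CIP/KIP proteins bind cyclin-CDK complexes, including those of CDK2, so that both families hold back phosphorylation of the retinoblastoma protein and entry into S phase. Cdkn2a and Cdkn1a are widely used markers of senescence, and the second product of Cdkn2a, p19ARF, stabilises p53 by restraining MDM2. KAT6A is a histone acetyltransferase known for restraining Cdkn2a in fibroblasts, and CDK inhibitors are known to keep hematopoietic stem cells quiescent.

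RNA-sequencing had been performed on single C57BL/6 embryos at embryonic day 9.5 (E9.5) and on LSK cells (lineage marker-negative, SCA-1-positive, c-KIT-positive cells, the compartment that contains hematopoietic stem cells) sorted from fetal livers at E14.5. The 24 E9.5 libraries fell into 6 genotypes of 4 embryos each: wild type (WT), Kat6a-/- (labelled cfd/cfd), Kat6b-/- (labelled dec/dec), Kat6aE/E (homozygous for G656E in KAT6A), Kat6bE/E (homozygous for G577E in KAT6B) and the Kat6aE/E;Kat6bE/E double mutant. The 16 E14.5 libraries comprised 4 genotypes of 4 fetuses each, namely WT, Kat6bE/E, Kat6aE/E and the double mutant. Fetuses shared litters: WT replicates 1 to 3 came from litter 753 and WT replicate 4 from litter 1111. All mutants were homozygous. Both null alleles are deletions of several exons, and embryos at E9.5 had been chosen for similar external appearance, so that the comparison excludes embryos that looked different.

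The E9.5 libraries held between 8401990 and 23339359 gene counts (median 15317052.5) from 17 litters, and the LSK libraries between 12270376 and 59216547 (median 21709236) from 9 litters. Values below are CPM, the counts of a gene relative to library size, scaled by the trimmed mean of M-values (TMM) within each experiment, unless stated otherwise, and levels in LSK cells and embryos were therefore scaled separately. The gene totals do not check the deletions: Kat6a stood at 166 CPM in Kat6a-/- and 176 CPM in WT embryos, and Kat6b at 54.5 CPM in Kat6b-/- and 40.5 CPM in WT embryos (log2 fold change 0.41, FDR = 0.0044). All 9 LSK marker genes exceeded 1 CPM on average in each LSK genotype, with summed levels of 1049 to 2176 CPM per library. Ly6a, which encodes SCA-1, was low, at 0.937 to 10.3 CPM per library (median 3.76 CPM). The 6 macrophage and granulocyte marker genes summed to 2892 to 5722 CPM per LSK library, with Mpo at 2483 to 5120 CPM. The 4 hepatoblast marker genes summed to 34.6 to 225 CPM. The source of this RNA was not tested. Erythroid marker genes (Hba-a1, Hbb-bt, Alas2), which the sort should remove, summed to 4298, 4580 and 7827 CPM in the 3 double mutant LSK libraries from litter 1045, and to between 262 and 3254 CPM in the other 13 LSK libraries. These 3 libraries also had fewer genes detected, 12600 to 13555, as did Kat6aE/E replicate 2 (13683 genes), against 16082 to 17647 in the other 12 LSK libraries. Kat6aE/E replicate 2 had the next highest erythroid sum, 3254 CPM. Cdkn2c in LSK cells is given with and without these libraries.

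Of the INK4 genes, 3 lie on mouse chromosome 4. In GRCm39, Cdkn2a spans chr4:89192708-89212890 and Cdkn2b chr4:89223204-89229276, 10313 bases apart, whereas Cdkn2c spans chr4:109517957-109524386, some 20305066 bases away. All 3 are on the minus strand. Cdkn2d is at chr9:21199700-21202727 (minus strand), Cdkn1a at chr17:29309936-29319701 (plus strand), Cdkn1b at chr6:134897364-134902476 (plus strand) and Cdkn1c at chr7:143012069-143014806 (minus strand). The first exon of the p19ARF transcript (exon 1 beta, chr4:89212571-89212890) and that of the p16INK4A transcript (exon 1 alpha, chr4:89200223-89200429) are distinct, but both transcripts share exon 2 (chr4:89194882-89195222), so that a count per gene does not separate them.

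The 250 bases immediately upstream of 4 annotated starts are shown 5′ to 3′ on the gene's strand with CpG dinucleotides in capitals: Cdkn2c and Cdkn1b because they are the members that passed the test in mutant embryos, and both Cdkn2a starts because 2 transcripts are joined in a single count.
Cdkn2c, chr4:109524387-109524636: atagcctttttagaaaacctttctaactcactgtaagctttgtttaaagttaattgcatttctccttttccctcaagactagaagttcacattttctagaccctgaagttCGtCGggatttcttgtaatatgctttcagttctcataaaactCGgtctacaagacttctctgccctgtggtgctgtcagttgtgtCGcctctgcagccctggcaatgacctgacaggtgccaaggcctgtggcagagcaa
Cdkn1b, chr6:134897114-134897363: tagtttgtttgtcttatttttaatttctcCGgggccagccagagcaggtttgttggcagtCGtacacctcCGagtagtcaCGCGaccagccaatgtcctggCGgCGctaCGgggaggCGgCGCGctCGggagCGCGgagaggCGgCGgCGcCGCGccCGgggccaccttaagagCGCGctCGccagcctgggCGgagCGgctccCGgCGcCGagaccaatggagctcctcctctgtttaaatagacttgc
Cdkn2a exon 1 beta (p19ARF), chr4:89212891-89213140: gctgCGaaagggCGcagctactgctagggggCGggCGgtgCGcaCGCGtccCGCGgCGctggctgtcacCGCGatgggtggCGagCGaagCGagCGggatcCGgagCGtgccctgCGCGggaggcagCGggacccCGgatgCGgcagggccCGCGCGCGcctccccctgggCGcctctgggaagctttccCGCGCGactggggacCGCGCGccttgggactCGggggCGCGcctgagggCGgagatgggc
Cdkn2a exon 1 alpha (p16INK4A), chr4:89200430-89200679: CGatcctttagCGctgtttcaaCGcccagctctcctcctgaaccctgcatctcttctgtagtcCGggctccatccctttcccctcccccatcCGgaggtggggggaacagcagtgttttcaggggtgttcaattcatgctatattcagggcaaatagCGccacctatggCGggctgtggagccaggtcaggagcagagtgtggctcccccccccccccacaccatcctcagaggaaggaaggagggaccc

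The Cdkn2c window held 4 CpG dinucleotides at 44.0% GC, the Cdkn1b window 28 at 64.4%, the exon 1 beta window 38 at 77.6%, and the exon 1 alpha window 7. Among 32851 RefSeq promoters (GRCm38.p6, 250 bases before the start), the median was 6 CpG dinucleotides at 52.4% GC, and 98.1% of them held fewer than the exon 1 beta window, 92.4% fewer than Cdkn1b, 53.7% fewer than exon 1 alpha and 37.8% fewer than Cdkn2c. The Cdkn2c window lies before the outermost annotated start only. RefSeq gives 2 other starts for Cdkn2c, whose windows held 29 CpG dinucleotides at 77.2% GC, with GGGCGG, and 6 at 42.8%, without any of the patterns below, so the composition depends on the start chosen and no contrast with Cdkn1b is drawn. Of 5 letter patterns searched on both strands, TTTCCCGC (held by 0.895% of RefSeq promoters) and GGGCGG (32.7%) were found upstream of exon 1 beta, GGGCGG and CCAAT (33.8%) upstream of Cdkn1b, and none in the printed windows of Cdkn2c and exon 1 alpha, where TTTGGCGC (0.417%) and TATAAA (12.4%) were also not found. RefSeq held promoters for 6 of the 7 members, with 9 starts in all and no entry for Cdkn1c. Among these 9 promoters, GGGCGG was found in 5, CCAAT in 2, TTTCCCGC in 1, and TTTGGCGC and TATAAA in 0.

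In WT embryos, Cdkn1c was the member with the highest level. Per kilobase of gene length, it contributed 78.7% ± 0.436 (SD, n = 4) of the summed level of the 7 genes, followed by Cdkn1b with 11.004% ± 0.747, Cdkn2d with 6.53% ± 0.263, Cdkn1a with 3.09% ± 0.227 and Cdkn2c with 0.518% ± 0.160. The 4 INK4 genes together made up 7.18% ± 0.156. In WT LSK cells, Cdkn2d contributed the largest share, 38.7% ± 2.29, ahead of Cdkn1b with 25.8% ± 4.68, Cdkn1c with 19.2% ± 3.88, Cdkn1a with 10.97% ± 1.56 and Cdkn2c with 5.32% ± 2.39, and the INK4 genes together made up 44.1% ± 1.22. The composition of the CDK inhibitor transcripts therefore differed between the sample types, with the ranges of the INK4 share not overlapping (7.05% to 7.39% and 42.3% to 45.0%).

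**Figure D1:**
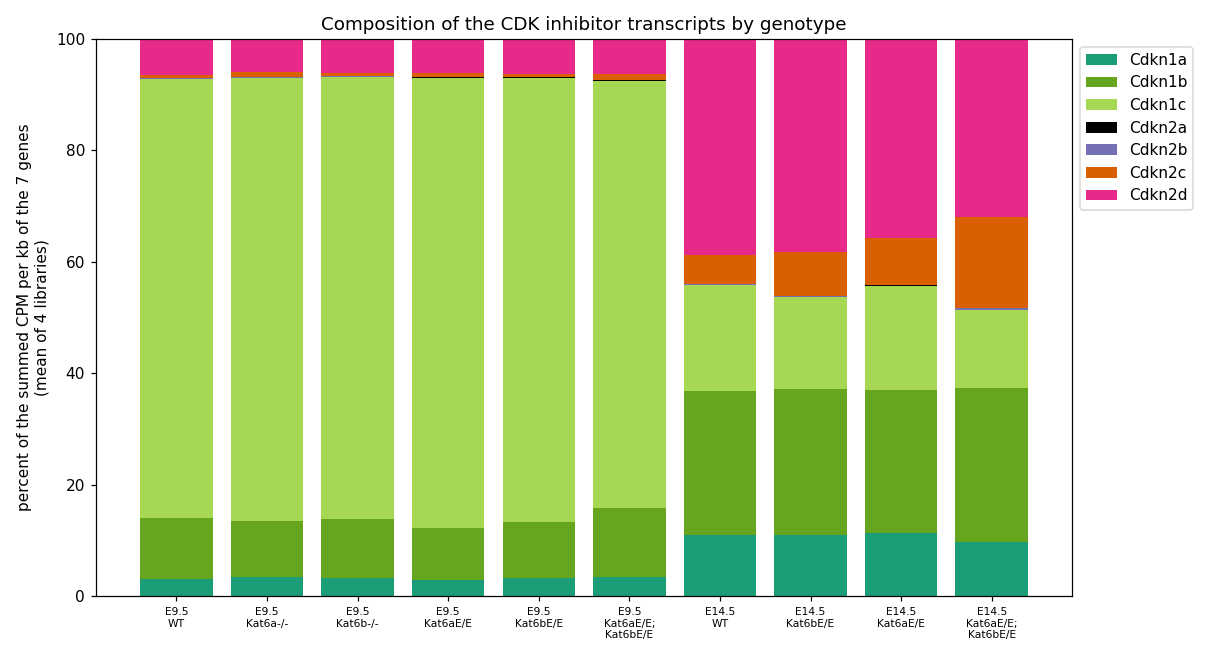
Share of each CDK inhibitor gene in the summed CPM per kilobase of the 7 genes (vertical axis, percent; mean of 4 libraries) for the 10 combinations of stage and genotype (horizontal axis). Cdkn1c dominates all 6 embryo genotypes, whereas Cdkn2d holds the largest share in all 4 LSK genotypes and Cdkn2c is at 16.4% in double mutant LSK cells.

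In a fit of all 40 libraries, 3 members differed between WT LSK cells and WT embryos at a false discovery rate (FDR) under 0.05, a threshold that 76% of the 15123 genes tested passed. Cdkn1c, an imprinted gene expressed from the maternal allele, was at 17.0 CPM ± 3.78 in LSK cells and 298 CPM ± 26.4 in embryos (log2 fold change -3.71 ± 0.21 SE, FDR = 1.48e-16). Cdkn1b fell as well, with 28.2 CPM ± 4.20 in LSK cells against 51.8 CPM ± 2.82 in embryos (log2 fold change -0.67 ± 0.16, FDR = 0.00033). Cdkn2c was higher in LSK cells, at 5.44 CPM ± 2.31 against 2.29 CPM ± 0.74 (log2 fold change 0.63 ± 0.28, FDR = 0.040). The Cdkn2c call depended on single libraries: it was lost in 14 of 40 fits that each left out 1 library, and without WT LSK replicate 4 its log2 fold change was 0.18 (FDR = 0.55). The libraries whose removal ended the call were E9.5 WT replicates 1, 2 and 4, E9.5 Kat6a-/- replicates 1 and 4, E9.5 double mutant replicate 2, LSK WT replicates 2 and 4, all 4 LSK Kat6bE/E replicates and LSK Kat6aE/E replicates 1 and 3, with FDR values from 0.0634 to 0.545. Cdkn2d had a log2 fold change of 0.25 (FDR = 0.064) and Cdkn1a of 0.13 (FDR = 0.50). Stage, tissue and sorting differed together between these sample types and cannot be told apart, nor can a smaller number of cells expressing a gene and less of its RNA per cell.

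The question asked of the E9.5 embryos was whether loss of KAT6A or KAT6B, or of their catalytic activity alone, altered the CDK inhibitors. Cdkn2c, the inhibitor of CDK4 and CDK6 that restrains the cycling of hematopoietic progenitors, was the member that changed most: it rose in Kat6a-/- and in double mutant embryos. In WT embryos Cdkn2c was at 2.08, 1.89, 3.38 and 1.82 CPM. In Kat6a-/- embryos it was at 3.79, 3.25, 4.93 and 3.98 CPM. In double mutant embryos it was at 4.15, 4.61, 4.46 and 3.80 CPM. All 4 double mutant embryos exceeded all 4 WT embryos, whereas 1 Kat6a-/- embryo lay below WT replicate 3, the only WT embryo above 2.1 CPM. Compared with WT, Cdkn2c was 1.73-fold higher in Kat6a-/- embryos (log2 fold change 0.79 ± 0.19 SE, 95% interval 0.39 to 1.18, FDR = 0.0271) and 1.96-fold higher in double mutants (0.97 ± 0.19, 0.59 to 1.36, FDR = 0.0056).

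**Figure D2:**
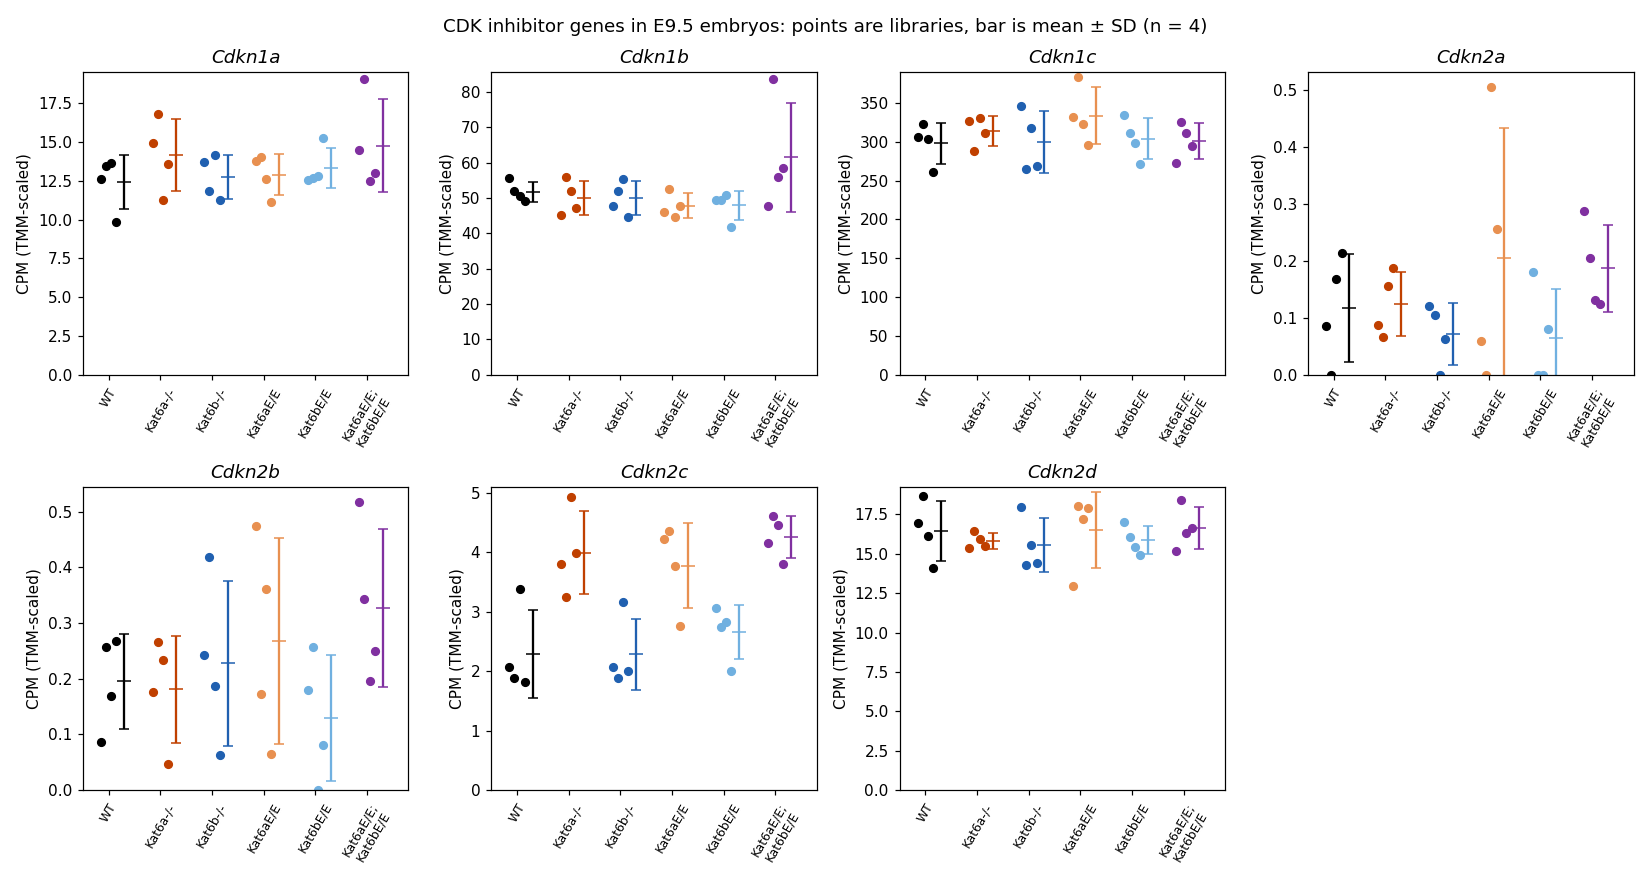
CPM of each CDK inhibitor gene (vertical axes, starting at 0) in the 24 E9.5 embryos by genotype (horizontal axes), with points for embryos and bars for mean ± SD (n = 4, lower ends under 0 not drawn). Cdkn2c sits between 3.25 and 4.93 CPM in Kat6a-/- and between 3.80 and 4.61 CPM in double mutant embryos, against 1.82 to 3.38 CPM in WT, whereas each mutant genotype overlaps WT for the other members.

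The remaining genotypes were ordered by mean Cdkn2c level as follows, with each neighbour in the order overlapping the next. Kat6aE/E embryos, at 4.22, 4.35, 3.76 and 2.76 CPM, averaged 3.77 CPM ± 0.72. Kat6bE/E embryos, at 3.06, 2.74, 2.83 and 2.01 CPM, averaged 2.66 CPM ± 0.45, and Kat6b-/- embryos, at 2.07, 1.89, 3.17 and 2.00 CPM, averaged 2.28 CPM ± 0.60. The Kat6aE/E embryos thus lay near the Kat6a-/- embryos and the Kat6b-/- embryos near WT, but Cdkn2c did not pass the test in Kat6aE/E embryos (log2 fold change 0.69, 0.31 to 1.07, unadjusted p = 0.00094, FDR = 0.117), in Kat6bE/E embryos (0.28, FDR = 1.00) or in Kat6b-/- embryos (0.16, FDR = 0.82). Between Kat6aE/E and Kat6a-/- embryos, the difference was -0.10 with an interval of -0.46 to 0.26 (FDR = 0.85), and between double mutants and Kat6aE/E embryos 0.28 with an interval of -0.09 to 0.66 (FDR = 0.63). These intervals leave room for differences in either direction. The double mutant exceeded Kat6b-/- embryos by 0.82 (0.45 to 1.18, FDR = 0.0481), whereas its difference from Kat6a-/- embryos was 0.19 (-0.18 to 0.55, FDR = 0.75). The former call was lost in 15 of 24 fits that left out 1 embryo (WT replicate 1, all 4 Kat6a-/- replicates, all 4 Kat6b-/- replicates, Kat6bE/E replicates 1, 3 and 4, and double mutant replicates 2, 3 and 4), with FDR values between 0.0573 and 0.232.

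Cdkn2c is a low-level gene, with 17 to 101 counts per embryo library, and the limma calls depended on the surrogate variables, which absorb unlabelled variation between libraries. Without them, the log2 fold changes were similar but no longer called, at 0.79 in Kat6a-/- (FDR = 0.080) and 0.90 in double mutants (FDR = 0.13), whereas DESeq2 with genotype alone called both (0.82, FDR = 0.027, and 0.91, FDR = 0.014). The rise in the double mutant was called in 24 of 24 fits that left out 1 embryo (log2 fold change 0.83 to 1.19), and the rise in Kat6a-/- embryos in 18 of 24 (0.63 to 1.00). The Kat6a-/- call was lost without WT replicate 1, 2 or 4 or Kat6a-/- replicate 1, 3 or 4, with FDR values between 0.0566 and 0.131. The erythroid marker genes summed to between 531 and 826 CPM in WT, 672 and 1519 CPM in Kat6a-/- and 509 and 853 CPM in double mutant embryos, with all 3 markers detected above 1 CPM in each genotype. Neural markers (2 of 2 above 1 CPM in both genotypes) summed to 214 to 249 CPM in WT and 138 to 200 CPM in Kat6a-/- embryos, and endothelial markers to 131 to 144 CPM and 86.1 to 126 CPM, and their part in the result was not tested. With the erythroid sum as a covariate, added after seeing the data, Cdkn2c was at 0.645 in Kat6a-/- (FDR = 0.093) and at 0.93 in double mutants (FDR = 0.00996). Embryos of the same litter gave 3.25 CPM (Kat6a-/-) against 2.08 CPM (WT), 4.22 CPM (Kat6aE/E) against 1.89 CPM (WT), and 1.89 CPM (Kat6b-/-) against 3.38 CPM (WT). No litter held both WT and double mutant embryos.

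**Figure D3:**
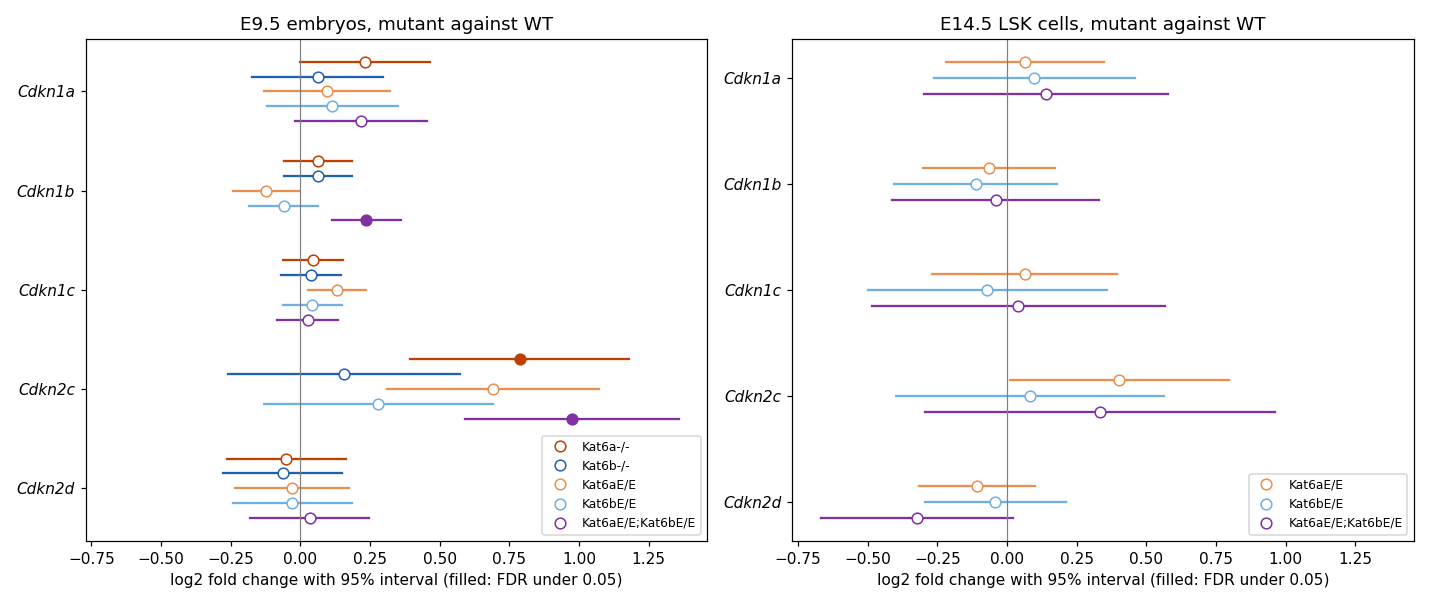
Log2 fold change against WT (horizontal axes; points with 95% intervals, filled where FDR is under 0.05) for the 5 CDK inhibitor genes above the count filter (vertical axes), in E9.5 embryos on the left and E14.5 LSK cells on the right. The filled points are Cdkn2c at 0.79 in Kat6a-/- and 0.97 in double mutant embryos and Cdkn1b at 0.24 in double mutant embryos, and none is filled in LSK cells.

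The second member to pass the test at E9.5 was Cdkn1b, whose product p27KIP1 restrains cyclin E-CDK2 and limits body size in mice. Double mutant embryos had 47.9, 83.6, 55.9 and 58.6 CPM, compared with 55.7, 51.9, 50.7 and 49.1 CPM in WT. The groups overlapped, with replicate 1 of the double mutant below all WT embryos and replicate 2 far above. The fitted difference was 1.18-fold (log2 fold change 0.24 ± 0.06 SE, FDR = 0.0316), and it was not called without surrogate variables (0.26, FDR = 0.38), with DESeq2 (0.25, FDR = 0.31) or with a replicate block (0.21, FDR = 0.076). The call was lost in 10 of 24 fits that left out 1 embryo (WT replicates 2, 3 and 4, Kat6a-/- replicate 2, Kat6b-/- replicate 4, Kat6aE/E replicate 2, Kat6bE/E replicate 4, and double mutant replicates 2, 3 and 4), and without double mutant replicate 2 the log2 fold change was 0.16 (FDR = 0.195). Cdkn1b was at 46.2, 52.7, 44.6 and 47.8 CPM in Kat6aE/E embryos and had a log2 fold change of -0.12 to WT (FDR = 0.475). Accordingly, the double mutant also differed from Kat6aE/E embryos (0.36 ± 0.06, FDR = 0.0163), a call lost without Kat6b-/- replicate 2 or 4, Kat6aE/E replicate 4 or double mutant replicate 2 or 4 (FDR 0.0527 to 0.102). Cdkn1b departed from the sum of the single point mutant effects by 0.42 (unadjusted p = 5.5e-05, FDR = 0.233), which did not pass the test. Kat6a-/-, Kat6b-/- and Kat6bE/E embryos averaged 50.1, 49.9 and 47.9 CPM, each overlapping WT.

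Cdkn1a, Cdkn1c and Cdkn2d were called in 0 of the 10 comparisons between embryo genotypes. Cdkn1a, a p53 target and marker of damage and senescence, averaged 12.4 CPM ± 1.74 in WT, 14.1 CPM ± 2.33 in Kat6a-/- and 14.7 CPM ± 2.99 in double mutant embryos. The log2 fold changes to WT were 0.23 in Kat6a-/- (95% interval -0.003 to 0.46, FDR = 0.30) and 0.22 in double mutants (-0.02 to 0.46, FDR = 0.32). The libraries of all 6 genotypes lay between 9.86 and 19.0 CPM, with each mutant genotype overlapping WT. Cdkn1c, the most abundant member, lay between 261 and 384 CPM, with the highest mean in Kat6aE/E embryos (334 CPM ± 36.6, log2 fold change 0.13, unadjusted p = 0.015, FDR = 0.354). Cdkn2d, expressed in post-mitotic neurons and other differentiated cells, lay between 12.9 and 18.7 CPM and its log2 fold changes to WT were between -0.06 and 0.03. The 95% intervals of Cdkn2d extended to -0.28 and 0.25.

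The counts of members that passed were read against all genes tested. Of the 5 members above the count filter, 1 was called in Kat6a-/- embryos (2.64% of 14183 genes), 0 in Kat6b-/- (0.508%), 0 in Kat6aE/E (0.275%), 0 in Kat6bE/E (0%) and 2 in double mutants (2.91%), all higher than WT. Members whose CPM did not overlap WT numbered 0 in Kat6a-/- (11.9% of genes), 0 in Kat6b-/- (6.61%), 0 in Kat6aE/E (4.94%), 0 in Kat6bE/E (2.31%) and 1, Cdkn2c, in double mutants (7.31%). Between mutants, members called were 0 for Kat6aE/E against Kat6a-/- (1.6%), 0 for Kat6bE/E against Kat6b-/- (0.0353%), 0 for the double mutant against Kat6a-/- (0.00705%), 1 against Kat6b-/- (0.212%) and 1 against Kat6aE/E (0.141%), and 0 departed from additivity (0%). With 5 members, 1 or 2 calls is a small number, and no test of the family as a whole was made. In Kat6bE/E embryos, limma called 0 of all genes, with 626 at unadjusted p under 0.05 and 0 by DESeq2. The departure from additivity had 0 genes called by limma, 910 at unadjusted p under 0.05 and 1 by DESeq2.

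Transcripts of the senescence locus itself, Cdkn2a and Cdkn2b, were at the limit of detection and below the count filter in both experiments. Cdkn2a, whose products act on CDK4 and CDK6 and on MDM2, had 47 counts in all 24 embryo libraries together, or 0.128 CPM over the summed TMM-scaled library sizes (95% Poisson interval 0.0943 to 0.171, counting error only). The embryo genotypes had 7 (WT), 8 (Kat6a-/-), 4 (Kat6b-/-), 12 (Kat6aE/E), 4 (Kat6bE/E) and 12 (double mutant) counts over 4 embryos. The lowest embryo had 0 counts and the highest, Kat6aE/E replicate 3, had 7, and each mutant genotype overlapped WT. In CPM, the double mutant (0.125 to 0.288) and Kat6b-/- embryos (0 to 0.122) fell just short of overlapping, at 2 to 5 and 0 to 2 counts per embryo. The edges were 2 counts in double mutant replicate 4 and 1 count in Kat6b-/- replicate 1. At such counts the gap is not read as a difference, and the share of all genes apart in this pair is not given here. In LSK cells, Cdkn2a had 3 counts in 16 libraries, 2 in Kat6aE/E replicate 1 and 1 in Kat6aE/E replicate 3. WT, Kat6bE/E and double mutant LSK cells had 0, which allows levels of up to 0.0232, 0.0386 and 0.0417 CPM (3 counts over the summed TMM-scaled sizes of the 4 libraries).

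Cdkn2b, a CDK4 and CDK6 inhibitor induced by TGFβ, had 82 counts in embryos and 32 in LSK cells. Over 4 embryos there were 11 counts in WT, 10 in Kat6a-/-, 15 in Kat6b-/-, 18 in Kat6aE/E, 7 in Kat6bE/E and 21 in double mutants. In LSK cells, WT had 3, Kat6bE/E 7, Kat6aE/E 5 and double mutants 17, of which 16 were in replicate 4. The double mutant sum in LSK cells thus rested on 1 library. In 16 two-sided exact permutation tests of Cdkn2a and Cdkn2b against WT (4 against 4 libraries, unadjusted, smallest p allowed 0.0286), 0 had p under 0.05. The smallest was p = 0.171 for Cdkn2b in double mutant embryos (exact permutation test, 0.327 CPM ± 0.141 against 0.195 CPM ± 0.085, n = 4). The 95% Poisson intervals of the 6 embryo genotypes overlapped for both genes. These intervals cover counting error only, and their overlap does not exclude a difference, so no conclusion between genotypes is drawn from them.

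In LSK cells, 0 of the 5 members above the filter were called in any of the 6 comparisons between genotypes. The comparisons were Kat6aE/E with WT (1.36% of 13071 genes called), Kat6bE/E with WT (0%), double mutant with WT (0%), double mutant with Kat6aE/E (0%), double mutant with Kat6bE/E (1.48%) and the departure from additivity (0%). Where limma called 0 genes, the numbers at unadjusted p under 0.05 were 364, 896, 197 and 652 in this order, and DESeq2 called 0, 262, 62 and 0. Members that did not overlap WT numbered 0 in Kat6aE/E (4.1% of genes), 0 in Kat6bE/E (3.92%) and 0 in double mutants (4.53%).

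**Figure D4:**
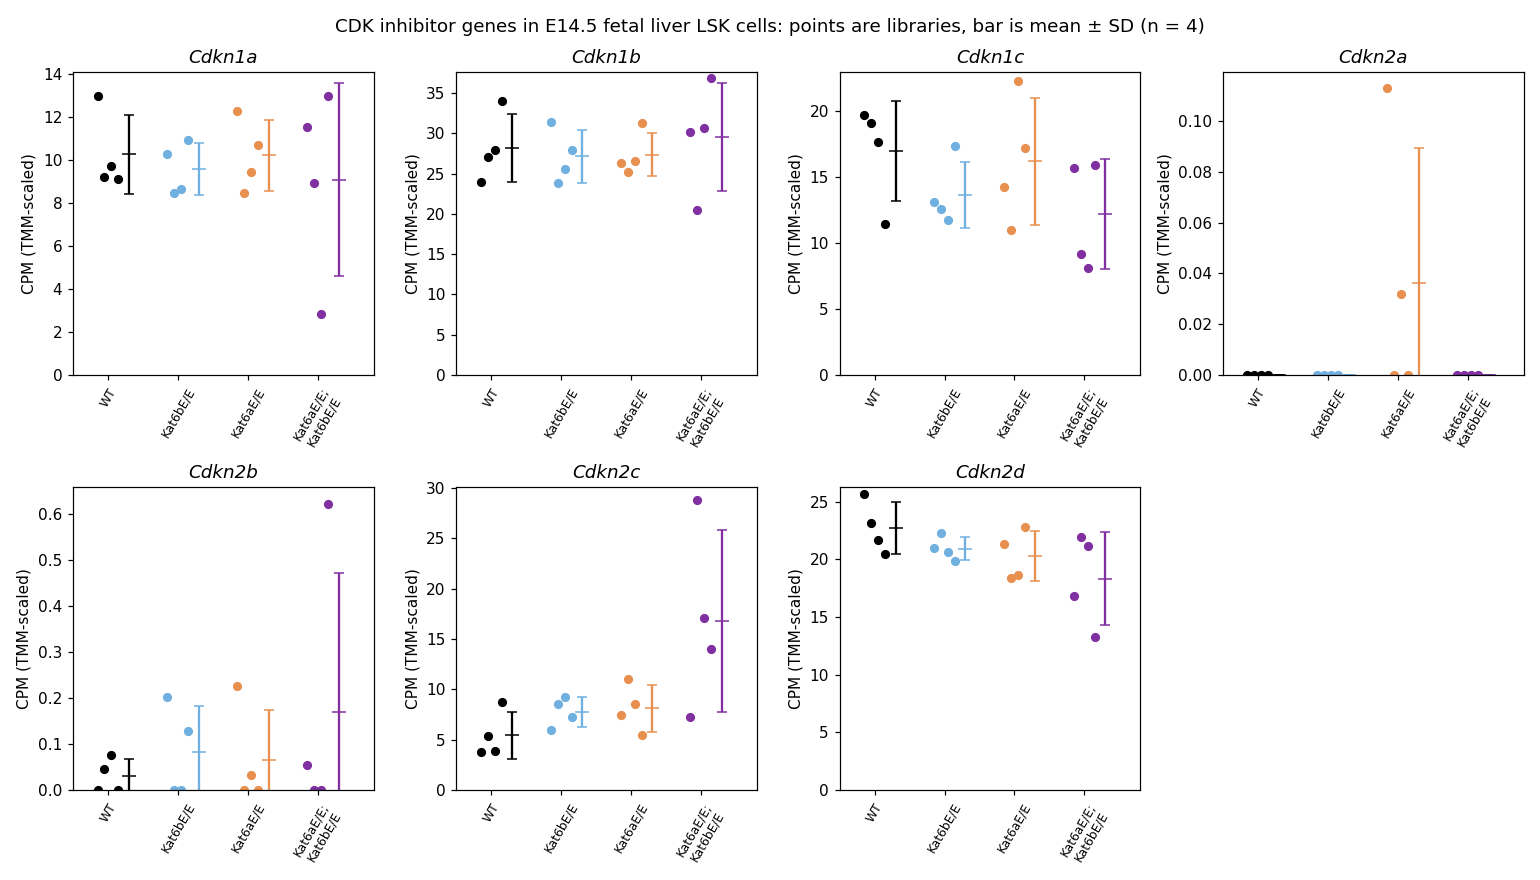
CPM of each CDK inhibitor gene (vertical axes, starting at 0) in the 16 libraries of E14.5 LSK cells by genotype (horizontal axes), with points for libraries and bars for mean ± SD (n = 4, lower ends under 0 not drawn). All members overlap between genotypes, and Cdkn2c spreads from 7.23 to 28.8 CPM in double mutants.

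Cdkn2c had the widest spread among LSK libraries. WT libraries were at 3.77, 5.37, 3.88 and 8.72 CPM, and Kat6bE/E libraries at 5.92, 8.51, 9.23 and 7.29 CPM. The highest WT library, replicate 4, was the only one from litter 1111. Its erythroid sum was 1898 CPM, against 464 to 798 CPM in WT replicates 1 to 3. Fits without it therefore represent WT LSK cells by litter 753 alone. Kat6aE/E libraries were at 7.40, 11.001, 8.55 and 5.44 CPM. Double mutant libraries were at 7.23, 28.8, 17.0 and 14.05 CPM, the last 3 being those of litter 1045 with high erythroid markers. These 3 exceeded all other LSK libraries, whereas the double mutant from litter 970 lay among the other genotypes, next to a Kat6bE/E littermate at 5.92 CPM. With 4 surrogate variables and litter in the model, the log2 fold change to WT was 0.33 in double mutants (-0.30 to 0.96, FDR = 0.87), 0.40 in Kat6aE/E (0.01 to 0.80, unadjusted p = 0.045, FDR = 0.38) and 0.08 in Kat6bE/E cells (-0.40 to 0.56, FDR = 1.00). The value for the double mutant was not stable: DESeq2 with genotype alone gave 1.61 (FDR = 0.0027), and leaving out double mutant replicate 1 gave 1.00 (FDR = 0.0041). Leaving out WT replicate 4 gave 0.88 (FDR = 0.47), leaving out Kat6aE/E replicate 2 gave 0.60 (FDR = 0.51), and leaving out double mutant replicate 2, 3 or 4 gave 0.55 to 0.62 (FDR 0.489 to 0.527). The value for Kat6aE/E cells moved as well, to 0.74 without WT replicate 4 (FDR = 0.106), 0.27 without Kat6aE/E replicate 1 (FDR = 0.93) and 0.60 without Kat6aE/E replicate 2 (FDR = 0.104), and with 6 surrogate variables it was 0.63 (FDR = 0.044). Without the 3 libraries of litter 1045, added after seeing the data, the values were 0.53 (FDR = 0.53) in the remaining double mutant library, whose spread was taken from the other genotypes, and 0.60 (FDR = 0.060) in Kat6aE/E cells. Kat6aE/E replicate 1 had 7.40 CPM against 3.77, 5.37 and 3.88 CPM in its 3 WT littermates.

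Across the LSK libraries, Cdkn2c levels were higher where the erythroid marker sum was higher (Pearson r = 0.85 on the log2 scale, Spearman rho = 0.868, n = 16), and the coefficients were smaller across embryos (r = 0.51, rho = 0.51, n = 24). These are descriptions across libraries that share litters and genotypes, without a test. With the sum of 12 proliferation genes, the correlations were 0.182 and 0.344 in LSK cells and -0.371 and -0.404 in embryos. With the erythroid sum as a covariate, the log2 fold change of Cdkn2c was 0.59 in Kat6aE/E (FDR = 0.203) and 0.48 in double mutant LSK cells (FDR = 0.94). The part of erythroid cells in the double mutant level was not tested, since litter 1045 held only double mutants.

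**Figure D5:**
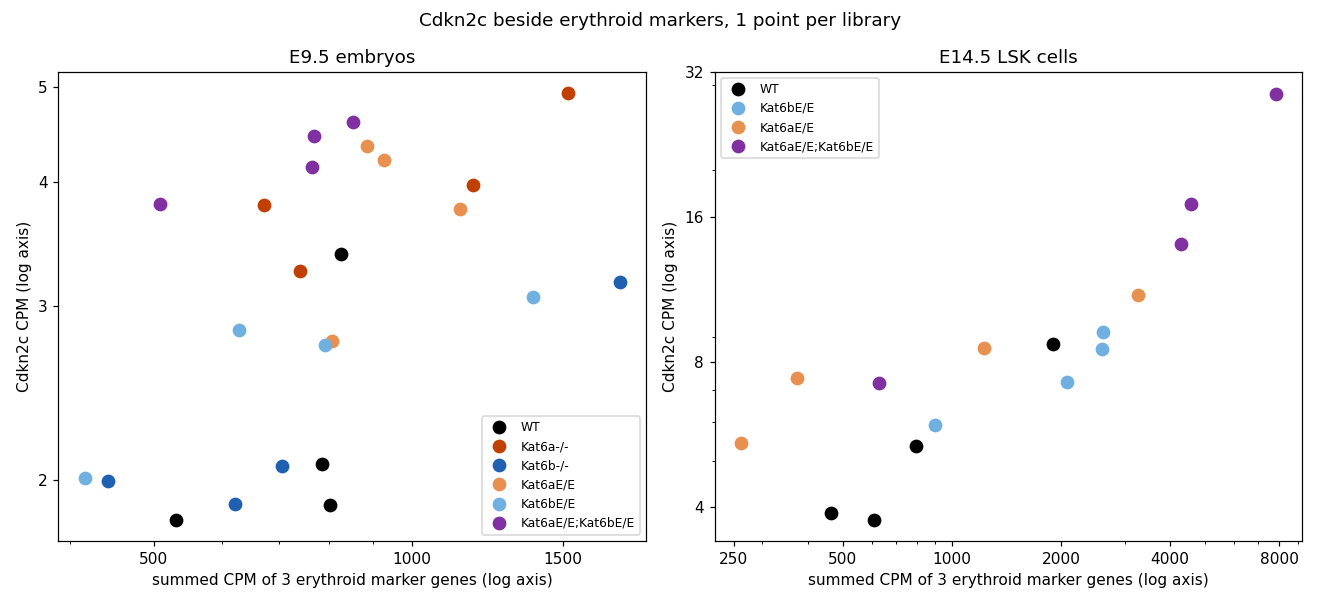
Cdkn2c CPM (vertical axes, log scale) against the summed CPM of 3 erythroid marker genes (horizontal axes, log scale), with a point for each of 24 E9.5 embryos on the left and 16 LSK libraries on the right, coloured by genotype. In LSK cells the 3 double mutant libraries of litter 1045 (14.05 to 28.8 CPM) lie at the upper right, whereas in embryos the double mutants (3.80 to 4.61 CPM) lie above all WT embryos at erythroid sums of 509 to 853 CPM.

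The other members passing the filter were also compared among LSK libraries. Cdkn1b lay between 20.5 and 36.8 CPM and Cdkn2d between 13.3 and 25.6 CPM. Cdkn2d, the leading INK4 gene in these cells, averaged 22.7 CPM ± 2.24 in WT and 18.3 CPM ± 4.03 in double mutants (log2 fold change -0.32, -0.67 to 0.02, unadjusted p = 0.064, FDR = 0.73). Cdkn1c, which maintains quiescence of hematopoietic stem cells, averaged 17.0 CPM ± 3.78 in WT and 12.2 CPM ± 4.15 in double mutants, where 2 libraries of litter 1045 were at 9.13 and 8.10 CPM and the other 2 libraries at 15.6 and 15.9 CPM. Its fitted difference was 0.04 (-0.49 to 0.57, FDR = 0.98). Cdkn1a was at 11.5, 8.94, 2.81 and 12.96 CPM in double mutants and between 8.45 and 12.99 CPM in the other 12 libraries, so that replicate 3, with 33 counts, was the only low library. None of the Cdkn1a differences passed the test.

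Whether a mutation acted differently in LSK cells and embryos was tested as an interaction over all 40 libraries. No member was called for Kat6aE/E (0.139% of genes called), Kat6bE/E (0%) or the double mutant (0.00661%). The interaction of Cdkn2c was -0.40 for Kat6aE/E (-0.96 to 0.16, FDR = 0.75) and -0.55 for the double mutant (-1.20 to 0.11, FDR = 0.71), where a negative value means a smaller fitted rise in LSK cells. Mean Cdkn2c CPM in double mutants went the other way, from 5.44 in WT to 16.8 in LSK cells and from 2.29 to 4.25 in embryos. That LSK mean includes the libraries of litter 1045. In Kat6aE/E the means were 8.10 CPM in LSK cells and 3.77 CPM in embryos. The interaction of Cdkn2d was -0.34 for the double mutant (FDR = 0.64). For Kat6bE/E, limma called 0 genes, with 593 at unadjusted p under 0.05 and 0 called by edgeR's quasi-likelihood test with surrogate variables.

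The genes around the inhibitors were followed in 11 lists holding 135 genes, of which 121 were tested in embryos and 116 in LSK cells. Of these, 2 were called in Kat6a-/- embryos (1.65%, beside 2.64% of all genes), 1 in Kat6b-/- (0.826%, beside 0.508%), 2 in Kat6aE/E (1.65%, beside 0.275%), 0 in Kat6bE/E and 8 in double mutants (6.61%, beside 2.91%). The 8 double mutant calls and the Kat6b-/- call by limma depended on the surrogate variables. Without them, limma and edgeR's quasi-likelihood test called 0 of all genes in either comparison. With only the libraries compared in the fit, limma again called 0 of all genes in double mutants. DESeq2 with genotype alone called 213 of all genes in double mutants and 16 in Kat6b-/- embryos. In LSK cells, 4 were called in Kat6aE/E (3.45%, beside 1.36%) and 0 in Kat6bE/E and double mutants. Over all genes, the calls in Kat6aE/E LSK cells went from 178 to 3 without surrogate variables. Lymphoid markers (3 of 4 above 1 CPM in WT), with Cd3e at 0 in all genotypes, summed to 35.5 to 69.1 CPM in WT, 12.9 to 27.3 CPM in Kat6aE/E and 4.35 to 26.6 CPM in double mutant LSK cells, and their part in these results was not tested. Values of the listed genes without the LSK libraries with few genes detected are not given here. The median log2 fold change of the listed genes was between -0.02 and 0.00 against WT in the embryo comparisons, as was that of all genes.

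Of the CDKs and cyclins (12 of 13 tested), 1 fell in double mutant embryos (beside 2.91% of all genes called): Ccnb1, the mitotic cyclin B1, from 156 to 139 CPM (log2 fold change -0.15, FDR = 0.036). The kinases that INK4 proteins bind were not called. Cdk4 had a log2 fold change of -0.01 in Kat6a-/- and -0.06 in double mutants, and Cdk6 of 0.08 and 0.01. Their D-type cyclin partners were also not called: Ccnd1 was at -0.15 in Kat6a-/- (FDR = 0.062), Ccnd2 at -0.06 and Ccnd3 at 0.11, with Cdk2 at 0.02. In Kat6aE/E LSK cells, Ccnd2 was at 0.35 (FDR = 0.090), Ccnd1 at 0.41 (FDR = 0.47) and Ccnd3 at -0.16 (FDR = 0.20).

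Among pocket proteins and E2F factors (13 tested), 0 were called against WT in either experiment. Rb1 was at -0.16 in Kat6a-/- (FDR = 0.38) and E2f2 at -0.25 in double mutant embryos (FDR = 0.079) and -0.10 in Kat6a-/- (FDR = 0.54). E2f4, a repressor-type E2F, was lower in double mutant than in Kat6bE/E LSK cells in the fit (352 against 367 CPM, log2 fold change -0.37, FDR = 0.041), as was Cul4a among the 9 ubiquitin ligase subunits that act on CIP/KIP proteins (194.6 against 213.5 CPM, -0.36, FDR = 0.042). Libraries of the 2 genotypes overlapped for both genes, and the double mutants include those of litter 1045. WT LSK cells averaged 264.5 CPM of E2f4 and 174 CPM of Cul4a, below the means of both genotypes. Over all genes, 193 (1.48%) were called in this comparison, and 0 without surrogate variables. No other ubiquitin ligase subunit of the list was called in a comparison between genotypes.

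Of the 22 genes of the p53 list, 1 was called in Kat6a-/- embryos (beside 2.64% of all genes) and 4 in double mutants (beside 2.91%). In Kat6a-/- embryos, the 1 that rose was Perp, a p53 target encoding a desmosomal protein, from 15.1 to 30.1 CPM (log2 fold change 0.84, FDR = 0.0053). In double mutant embryos, Pmaip1 (NOXA) rose from 5.27 to 9.70 CPM (0.81, FDR = 0.011), Ccng1 from 50.5 to 58.0 CPM (0.22, FDR = 0.048) and Rrm2b from 138 to 158 CPM (0.20, FDR = 0.030), whereas Trp53 itself fell from 258 to 237 CPM (-0.15, FDR = 0.045). Mdm2 did not pass (0.16, FDR = 0.21). In Kat6aE/E LSK cells, 2 fell in the fit (beside 1.36% of all genes called), Perp from 8.77 to 5.20 CPM (-0.83, FDR = 0.039) and Zmat3 from 7.89 to 5.93 CPM (-0.74, FDR = 0.045). The libraries overlapped for Zmat3, at 3.34 to 9.54 CPM in Kat6aE/E and 6.92 to 8.80 CPM in WT. For Perp they did not, at 4.41 to 5.74 CPM and 7.17 to 12.4 CPM. Perp was also lower in Kat6aE/E than in Kat6a-/- embryos (-0.56, FDR = 0.048), and Pmaip1 higher in double mutant than in Kat6aE/E embryos (0.87, FDR = 0.036). Cdkn1a, the best known member of the same pathway, was not called in these comparisons.

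Polycomb complexes silence Cdkn2a, and BMI1 is the subunit best known for this. Of 18 subunits, 1 was called at E9.5, Bmi1. It rose from 93.4 to 115 CPM in Kat6aE/E (0.30, FDR = 0.018, beside 0.275% of all genes called). In double mutants it rose to 115 CPM (0.33, FDR = 0.0050, beside 2.91%), and in Kat6a-/- embryos it was at 101 CPM (0.11, FDR = 0.37). It was also higher in double mutant than in Kat6b-/- embryos (0.34, FDR = 0.012). Ezh2 was at -0.11 in Kat6a-/- (FDR = 0.088) and -0.02 in double mutant embryos. In Kat6aE/E LSK cells, 1 fell (beside 1.36% of all genes called), Pcgf2 (MEL18), from 13.2 to 9.03 CPM (-0.68, FDR = 0.030), while Bmi1 was at 0.24 (FDR = 0.46). Cdc6, Ezh2, E2f2 and Melk, which KAT6A is known to activate in fibroblasts, were not called in any mutant against WT. In Kat6a-/- embryos Cdc6 was at -0.05 (FDR = 0.74) and Melk at -0.04 (FDR = 0.62).

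Of 20 senescence and secretory genes, 8 were tested in each experiment. Igfbp5 rose in Kat6a-/- embryos from 727 to 875 CPM (0.26, FDR = 0.013, beside 2.64% of all genes called). It fell in Kat6aE/E LSK cells (FDR = 0.018, beside 1.36%), where 3 libraries were at 0 CPM and the highest at 0.478 CPM, against 1.62 to 4.57 CPM in WT. The difference in its response to Kat6aE/E between sample types passed the interaction test (FDR = 0.0010), and its fitted size depends on the prior count. Of 12 proliferation genes, Cdc20 fell in Kat6b-/- (-0.19, FDR = 0.028) and double mutant embryos (-0.20, FDR = 0.0083) and Pcna in Kat6aE/E embryos (-0.16, FDR = 0.040). The shares of all genes called in these comparisons were 0.508%, 2.91% and 0.275%. Mki67 did not pass in Kat6a-/- embryos (-0.30, FDR = 0.32). The summed level of the 12 genes lay at 3310 to 3440 CPM in WT, 2990 to 3156 CPM in Kat6a-/- and 3160 to 3257 CPM in double mutant embryos. The sum thus lay below WT in these 2 genotypes, where 11.9% and 7.31% of single genes did not overlap WT. The sum overlapped WT in Kat6b-/- (3166 to 3470 CPM), Kat6aE/E (3150 to 3604 CPM) and Kat6bE/E embryos (3203 to 3491 CPM). Kat6aE/E embryos averaged 3.77 CPM of Cdkn2c, near the 3.99 CPM of Kat6a-/- embryos. The part of the summed level in the rise of Cdkn2c was not tested. Of 12 transcription factors upstream of CIP/KIP genes, Hes1, a Notch target that represses Cdkn1b and Cdkn1c, rose in double mutant embryos from 49.9 to 65.96 CPM (0.34, FDR = 0.010, beside 2.91% of all genes called). Hes1 was also higher there than in Kat6aE/E embryos (0.40, FDR = 0.018, beside 0.141%). Myc was lower in Kat6aE/E than in Kat6a-/- embryos (-0.37, FDR = 0.033). The other regulators of Cdkn2a (11 genes, 8 of them tested in LSK cells), the imprinted neighbours of Cdkn1c (4, 2 tested) and the neighbours of Cdkn2a and Cdkn2b (2, 1 tested) had 0 calls between genotypes, Mtap being at -0.07 in Kat6a-/- embryos (FDR = 0.34).

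Between WT LSK cells and WT embryos, 106 of 125 listed genes differed (84.8%, beside 76% of all genes), 34 higher and 72 lower in LSK cells. Cdk6 was 3.11 higher on the log2 scale (FDR = 7.8e-22) and Cdk2 0.43 higher, whereas Cdk4 (-0.55), Ccnd1 (-1.003), Ccnd2 (-1.55) and Ccnd3 (-0.50) were lower. Mki67 was 0.88 higher and Ccng1 0.43 higher, and Ezh2 (-0.42), Bmi1 (-0.65), Melk (-1.28) and Mtap (-0.47) were lower. Trp53 (0.00), Mdm2 (0.07), Rb1 (0.11), E2f2 (-0.03) and Cdc6 (0.07) were not called. The partners of the inhibitors thus differed between the sample types in both directions.

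Pairs of members were compared by their levels across libraries. Across the 24 embryos, the correlations of log2 CPM between pairs ranged from 0.0995 (Cdkn2c and Cdkn2d) to 0.524 (Cdkn1c and Cdkn2d). Across the 16 LSK libraries, they ranged from -0.723 (Cdkn1c and Cdkn2c) to 0.647 (Cdkn1a and Cdkn1c). These libraries share litters, genotypes and scaling. The genes whose pattern was most like that of a member in embryos were Arap1 for Cdkn2c (r = 0.838), Ccng2 for Cdkn1b (0.886), Fbxo25 for Cdkn2d (0.765), Iqcb1, Ttc23 and Hbp1 for Cdkn1a (0.758, 0.719 and 0.710), and Cyth3, Bcl11a and Clmp for Cdkn1c (0.834, 0.817 and 0.807). In LSK cells they were Cstdc5 for Cdkn2c (0.972), Hycc2 for Cdkn1b (0.900), Wtip for Cdkn2d (0.885), Matcap1, Il15ra and Synj2 for Cdkn1a (0.954, 0.953 and 0.952), and Ier2, Smim10l2a and Pik3c2b for Cdkn1c (0.919, 0.916 and 0.910). The gene most like each member differed between the experiments for all 5 members.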

How the data were processed

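The authors aligned read pairs to mm39 with Rsubread and counted them per RefSeq gene with featureCounts (versions not given in the sources used here), and deposited a table of raw counts per library. TruSeq libraries do not mark strand, so antisense transcription is included in a gene's count. Genes were assigned types by Entrez identifier (26359 of 26411 matched), and protein-coding genes off the Y chromosome that passed filterByExpr were tested, 14183 in embryos, 13071 in LSK cells and 15123 in the joint fit. As in the study's methods, counts were scaled by TMM and fitted with voomLmFit (edgeR 4.0.16), 4 surrogate variables, and the litter treated as a random effect (correlation 0.107 in embryos, 0.331 in LSK cells), followed by robust limma 3.58.1 moderated statistics in R 4.3.3 and Benjamini-Hochberg FDR under 0.05 over all genes tested. E9.5 and E14.5 libraries were fitted separately, and the comparison of sample types used all 40. Gene types came from another annotation than the study's, so the number of genes tested may differ from it. Cdkn2a and Cdkn2b, below the filter, were compared by exact permutation over the 70 splits of 8 libraries. Intervals and limits on counts cover counting error only. Named genes were all 7 members, up to 3 called genes per list and comparison with the smallest p, a set of cell cycle genes, and the genes most correlated with each member (log2 CPM, prior count 2). Members, lists and markers were chosen with earlier results of these data known. Alternatives were 0, 2 or 6 surrogate variables, no litter block, a replicate block, edgeR's quasi-likelihood test, DESeq2 1.42.0, its size factors, scaling by total counts for Cdkn2a and Cdkn2b, no count filter, all gene types, only the libraries compared, and leaving out each library. An erythroid covariate and the omission of 3 LSK libraries were added after seeing the data. The fit was also run on simulated counts, drawn independently for each library without litter effects or hidden factors. That run cannot bear on the surrogate variables or the litter block, and no conclusion is drawn from it. No 2 libraries of a genotype agreed within sampling noise (chi-square per degree of freedom 2.23 to 96.9 over 60 pairs). Protein sequences were not used here, and 1 marker gene is not reported here and entered no marker sum.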

Additional observations from a re-analysis of the deposited data

Results flagged for a closer look

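In 8 of 67 sets of 4 libraries, 1 library lay far from the other 3 in the level of a member. Chance gives such a gap in about 1 of 20 sets if levels are normally distributed. That does not hold for Cdkn2a and Cdkn2b at their few counts, so no excess over chance is read from the 8 sets. For Cdkn2c, these were E9.5 WT replicate 3, at 3.38 CPM beside 1.82 to 2.08 CPM, and E9.5 Kat6b-/- replicate 3, at 3.17 CPM beside 1.89 to 2.07 CPM. The latter had an erythroid marker sum of 1745 CPM, beside 442.5 to 705 CPM in the other Kat6b-/- embryos, whereas WT replicate 3 had 826 CPM, close to 2 of the other WT embryos. Kat6bE/E replicate 4 at E9.5 was set apart for both Cdkn1a, at 15.3 CPM beside 12.5 to 12.8 CPM, and Cdkn1b, at 41.8 CPM beside 49.4 to 50.9 CPM. E14.5 WT replicate 1 had 13 CPM of Cdkn1a, beside 9.09 to 9.73 CPM. E9.5 Kat6aE/E replicate 1 had 12.9 CPM of Cdkn2d, beside 17.2 to 18 CPM. For Cdkn2b, E14.5 Kat6aE/E replicate 1 was at 0.226 CPM (4 counts) beside 0 to 0.0318 CPM, and E14.5 Kat6aE/E;Kat6bE/E replicate 4 at 0.621 CPM (16 counts) beside 0 to 0.0539 CPM. No member differed between LSK cells and embryos in its response to a genotype by the interaction test.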

How the results depend on the processing

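Under other settings, 243 counts of members called kept to within 1.5 times the reported count and 31 did not, and when leaving out 1 library 480 did and 40 did not. Most comparisons had 0 members called, and a count that stayed at 0 was scored as kept. The tally therefore says little about the calls themselves, which are followed one by one below. No called fold change turned its direction. In Kat6a-/- against WT embryos, the 1 call became 0 with no or 2 surrogate variables, with edgeR's quasi-likelihood test without surrogate variables and with the erythroid covariate, with or without surrogate variables, and 0 to 1 when leaving out an embryo. In double mutant against WT embryos, the 2 calls became 0 without surrogate variables, with the quasi-likelihood test or the erythroid covariate without them, and when only the libraries compared were fitted, 1 with DESeq2, and 1 to 2 when leaving out an embryo. The double mutant against Kat6b-/- embryos went from 1 to 0 under every setting but 6 surrogate variables and no litter block, and to 0 to 2 when leaving out an embryo. The double mutant against Kat6aE/E embryos went from 1 to 0 without surrogate variables, with the quasi-likelihood test or the erythroid covariate without them, with DESeq2 and with only the libraries compared, and to 0 to 1 when leaving out an embryo. Additivity at E9.5 went from 0 to 0 to 1 when leaving out an embryo, the 1 being Cdkn1b without double mutant replicate 1. At E14.5, Kat6aE/E against WT gave 1 with 6 surrogate variables (Cdkn2c), and double mutant against WT 1 with DESeq2 (Cdkn2c). Leaving out an LSK library gave 0 to 1 for the double mutant against WT and against Kat6bE/E, in both without double mutant replicate 1. WT LSK cells against WT embryos gave 5 calls with no filter on low counts. The causes were not tested. Over all genes, the numbers called also moved: in Kat6a-/- embryos from 375 to 111 without surrogate variables and 631 with 6, in double mutant embryos from 413 to 0 and 811, with 213 by DESeq2, and in Kat6aE/E LSK cells from 178 to 3 and 267, with 6 by DESeq2. In double mutant LSK cells, 0 genes became 1 without surrogate variables, 22 with 6, 262 with DESeq2 and 30 without litter 1045, where 453 were called in Kat6aE/E.

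Replicate numbers did not pair the libraries: the same numbers correlated at a median of 0.0478 over 60 pairs in embryos and 0.00383 over 24 pairs in LSK cells, and 7 of 24 and 3 of 16 libraries correlated best with their own number. With a replicate block, the double mutant against WT embryos had 1 call and the double mutant against Kat6b-/- embryos 0. Cdkn2a and Cdkn2b are limited by depth, and 4 libraries per genotype limit the rest.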
